A study of Mus musculus with 6 samples.

Results

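Conventional CD4 T cells were examined by single-cell RNA-Seq in the CD45+ fraction of tumors of B16-F10, a transplantable mouse melanoma. They were picked by a gate on UMIs (unique molecular identifiers, each standing for 1 captured RNA molecule) and not by clustering. A barcode had to hold 600 to 4000 genes and at most 10% mitochondrial UMIs, at least 2 UMIs over the 3 Cd3 genes and at least 1 Cd4 UMI. It had to hold no UMI of Cd8a or Cd8b1 and none of the B cell genes Cd79a, Cd79b and Ms4a1. To leave out regulatory T cells, it also had to hold no UMI of Foxp3, Ccr8 or Il2ra. At most 1 UMI was allowed over the cycling genes Mki67 and Top2a and at most 1 over the macrophage C1q genes, and Malat1 had to stay under 1.5% of UMIs. The gate kept 203 of the 52899 deposited barcodes, of which 30067 were within the limits on genes and mitochondrial UMIs and 6656 of those were T cells by the Cd3 criterion.

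CD4 T cells recognize peptides on MHC class II and help other cells of the immune response through cytokines and through CD40 ligand. Naive CD4 T cells circulate through lymphoid organs. They express homing receptors such as Ccr7 and transcription factors such as Tcf7, Lef1, Foxp1 and Klf2. On activation they lose this program, take up a helper fate (Th1, Th2, Th17 or follicular) and gain receptors and cytoskeletal proteins used in tissues.

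Tumors came from female C57BL/6 mice of 6 to 10 weeks that carried B16-F10 cells. The αPD-1 group and the αPD-1 + corin group had 3 samples each. Mice of both groups had the αPD-1 antibody at 150 μg per mouse, 3 times per week from day 7, and mice of the second group also had corin, an inhibitor of the CoREST chromatin complex, at 200 μg per mouse by daily i.p. injection from day 6. Each arm had 10 mice, and because the labels do not tie samples to mice, p-values measure only the spread between these samples. Tumors were dissociated and the suspensions frozen, and after thawing they were cleared of dead cells and enriched for CD45+ cells with beads before capture.

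The αPD-1 samples held 55, 58 and 32 conventional CD4 T cells (145 in all) and the αPD-1 + corin samples 18, 21 and 19 (58 in all). Their summed counts came to between 95351 and 170192 UMIs per αPD-1 sample and between 57961 and 79781 per αPD-1 + corin sample, with median depths of 2047 to 2768 UMIs per cell. The gate genes describe the cells and were not tested. Cd4 stood at 484, 553 and 528 CPM (UMIs scaled to 1 common library size) under αPD-1 and at 391, 445 and 660 CPM under αPD-1 + corin, and Cd3e at 553, 483 and 549 CPM and at 228, 486 and 495 CPM. Exactly 1 Cd4 UMI was found in 102 of the 145 cells and in 39 of the 58. Another 728 cells, 370 under αPD-1 and 358 under αPD-1 + corin, missed the gate only because they had none. By comparison, a Cd4 UMI was found in 6 of 164, 4 of 201 and 6 of 143 CD8 T cells under αPD-1 and in 2 of 48, 1 of 93 and 18 of 507 under αPD-1 + corin. Cd40lg, the gene of CD40 ligand and a marker outside the gate, was detected in 34 of 145 and 11 of 58 cells. Lef1 was detected in 95 of 145 αPD-1 cells but in 7 of 58 αPD-1 + corin cells, so that most αPD-1 + corin cells were without this marker. The 8 CD8 T cell genes other than those of the gate summed to between 54.0 and 346 CPM, too low for any of them to be tested.

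RNA of other lineages was present in some of the kept cells and more often in the αPD-1 + corin samples. The gate itself had kept out 77 αPD-1 and 2 αPD-1 + corin barcodes on the B cell genes alone. On the C1q genes alone it had kept out 8 and 23. The shares that follow describe only the cells that were kept. A count of 10 or more UMIs over the B cell, myeloid, neutrophil and melanoma lists (75 genes) was found in 9, 6 and 4 cells of the αPD-1 samples and in 11, 8 and 8 cells of the αPD-1 + corin samples, that is in 13.1% and 46.6% of cells. The highest count in 1 cell was 953 UMIs. Cells with 10 or more such UMIs were deeper, with sample medians of 3689 to 7548 UMIs against 1429 to 2503 UMIs for the others. Doublets were not called here beyond the gate, so results are given for all 203 cells and again for the 126 αPD-1 and 31 αPD-1 + corin cells with under 10 such UMIs. After this step the αPD-1 + corin samples held 7, 13 and 11 cells with 9645, 31569 and 19813 UMIs. The 6 libraries shared 299 barcodes, 2 of them barcodes of conventional CD4 T cells, and no barcode was a conventional CD4 T cell in 2 libraries.

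Conventional CD4 T cells made up 1.23%, 1.54% and 0.723% of barcodes within the limits under αPD-1 and 0.217%, 0.503% and 0.385% under αPD-1 + corin. The groups did not overlap, at 1.17% ± 0.413 and 0.368% ± 0.144 (SD, n = 3 each), and the two-sided exact permutation test gave p = 0.1, which is the smallest p that 3 samples against 3 can give. Among T cells they made up 4.15% ± 1.02 and 2.31% ± 1.17 (SD, n = 3 each), where the groups overlapped (exact permutation p = 0.2). Among CD4 T cells, that is together with regulatory T cells, the share was 81.5% ± 1.63 and 66.4% ± 21.4 (SD, n = 3 each, exact permutation p = 0.4). Barcodes kept out only for a UMI of Foxp3, Ccr8 or Il2ra numbered 46 under αPD-1 and 57 under αPD-1 + corin. Of these, 33 and 38 held Foxp3 and were taken as regulatory T cells. The others held only Ccr8 or Il2ra and were counted as neither kind. The share of barcodes depends on how many other cells were captured, so fewer conventional CD4 T cells and more cells of other types cannot be told apart in it. All these shares also depend on the detection of Cd4. In both groups the cells that missed the gate on Cd4 alone outnumbered those kept, and how many of them were CD4 T cells was not tested.

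Fewer of the cells carried naive T cell transcripts under αPD-1 + corin. A count of 2 or more UMIs over Ccr7 and Lef1 was found in 24 of 55, 36 of 58 and 15 of 32 cells of the αPD-1 samples. In the αPD-1 + corin samples it was found in 0 of 18 cells, which allows a share of up to 16.7%, in 1 of 21 and in 1 of 19. The shares were 50.9% ± 9.84 and 3.34% ± 2.90 (SD, n = 3 each), with every αPD-1 + corin sample below every αPD-1 sample (exact permutation p = 0.1). After each cell was thinned to 1000 UMIs the shares were 22.0% ± 2.00 and 0.960% ± 1.43, and among the cells with under 10 other-lineage UMIs they were 53.0% ± 11.2 and 5.59% ± 4.90 (SD, n = 3 each), again with no overlap. The choice of these 2 genes was made after the data were seen, and Lef1 was detected in more cells than Ccr7, in 95 against 29 of the 145 αPD-1 cells.

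CD8 T cells, taken by a like gate with at least 2 UMIs over Cd8a and Cd8b1 and numbering 1119, had naive transcripts in 36.1% ± 9.42 and 8.84% ± 5.23 of cells (SD, n = 3 each), without overlap. Regulatory T cells, 71 in all, had them in 10.3% ± 9.01 and 13.3% ± 12.6 (SD, n = 3 each), where the groups overlapped. The CD4 share minus the CD8 share was 14.8 percentage points on average under αPD-1 and -5.49 under αPD-1 + corin, and this difference had an exact permutation p of 0.2.

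**Figure D1:**
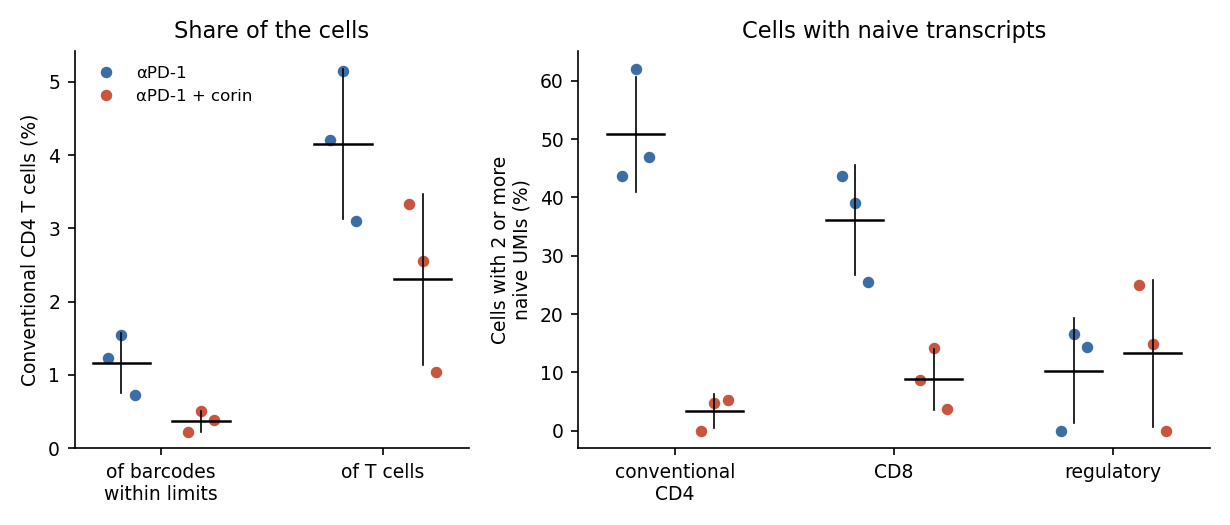
Conventional CD4 T cells as a percentage of barcodes within limits and of T cells (left), and the percentage of conventional CD4, CD8 and regulatory T cells with 2 or more UMIs over Ccr7 and Lef1 (right). Points are samples, horizontal bars means and vertical bars SD; the naive shares of the conventional CD4 cells do not overlap, at 50.9% and 3.34% on average, and those of regulatory T cells do.

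To ask which genes differed, UMIs were summed over the conventional CD4 T cells of each sample and compared by edgeR (quasi-likelihood), with Benjamini-Hochberg adjustment and a threshold of 0.05. Of the 1447 genes with enough counts, 120 (8.29%) were higher and 89 (6.15%) were lower in the αPD-1 + corin samples, and the median log2 fold change of all 1447 was 0.016. Among cells with under 10 other-lineage UMIs, 628 genes could be tested, of which 36 (5.73%) were higher and 30 (4.78%) were lower. Of the 89 genes lower in all cells, 73 could be tested in this set and 27 passed, and of the 120 higher genes 40 could be tested and 21 passed. As these cells are part of all 203, this is no independent check. The counts over all cells rested on 2 libraries, as 53 genes were higher and 36 lower without αPD-1 sample 1, and 52 higher and 41 lower without αPD-1 sample 2. Among the cells with under 10 other-lineage UMIs, 21 were higher without αPD-1 sample 1 or αPD-1 + corin sample 1 and 20 without αPD-1 + corin sample 2, and 14 were lower without αPD-1 + corin sample 1. In each of the 6 fits that left out 1 sample, 34 of the 120 higher and 31 of the 89 lower genes passed, and among the cells with under 10 other-lineage UMIs 11 of the 36 and 6 of the 30. Calls of single genes that were lost in such fits are given beside them.

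Genes of the naive and homing program fell together. The list held 24 genes, all in the files, of which 13 could be tested. Of the 13, 9 were lower, none was higher, and their median log2 fold change was -1.59. The summed level of the 24 genes was 6861, 7540 and 6029 CPM under αPD-1 and 2168, 2078 and 2210 CPM under αPD-1 + corin. Among the cells with under 10 other-lineage UMIs, 10 of the list could be tested and 7 were lower, with none higher. Over all genes tested, 6.15% were lower in all cells and 4.78% in this set. The share of the nuclear RNA Malat1, a gate gene, was capped by the gate. This criterion alone kept out 22 αPD-1 and 11 αPD-1 + corin barcodes. Among the kept cells the median Malat1 share of UMIs was 0.914%, 0.790% and 0.779% under αPD-1. Under αPD-1 + corin it was 0.492%, 0.613% and 0.466%. As the gate cut these values off at the top, no difference between the groups is read from them. The part of nuclear RNA in the falls was not tested.

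Lef1 (ENSMUSG00000027985, chromosome 3, 130903919 to 131018005 in GENCODE vM39 on GRCm39), a transcription factor of naive T cells and the gene with the largest fall of those named by rule, stood at 609, 659 and 580 CPM under αPD-1 and at 16.3, 54.0 and 49.5 CPM under αPD-1 + corin. The log2 fold change was -3.88 (SE 0.37, edgeR adjusted p = 1.09e-06), and the log2 fold change among cells with under 10 other-lineage UMIs was -3.18 (edgeR adjusted p = 1.99e-05). Its log2 change lay between -4.97 and -2.79 over the 21 alternatives in which it could be tested, and it passed in each of them.

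Foxp1, a forkhead factor that keeps T cells quiescent, stood at 1044, 942 and 818 CPM against 261, 162 and 181 CPM, a fall of 2.22 log2 units (SE 0.28, edgeR adjusted p = 2.41e-05). Satb1, an organizer of chromatin in T cells, stood at 560, 488 and 476 CPM against 65.2, 81.0 and 148 CPM and fell by 2.38 (SE 0.33, edgeR adjusted p = 7.84e-05). Bach2, a repressor that restrains effector differentiation, stood at 408, 447 and 570 CPM against 114, 108 and 99.0 CPM and fell by 2.12 (SE 0.32, edgeR adjusted p = 0.000199). All 3 also fell in the cells with under 10 other-lineage UMIs, with log2 fold changes of -3.11, -2.00 and -2.49. Without αPD-1 + corin sample 2 the calls of Satb1 and Bach2 in that set were lost (edgeR adjusted p = 0.0563 and 0.138).

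Tcf7, the partner of Lef1 in naive and memory T cells, stood at 519, 636 and 414 CPM against 97.8, 122 and 214 CPM and fell by 1.87 (SE 0.32, edgeR adjusted p = 0.000710). Klf2, which sustains expression of exit and homing receptors, fell by 1.19, Il7r, the receptor of the survival cytokine IL-7, by 1.54, Dgka, a brake on T cell receptor signalling, by 1.59, and Actn1, an actin crosslinker, by 2.22, with edgeR adjusted p between 0.00223 and 0.0120. Of these, Tcf7, Klf2 and Dgka also passed in the cells with under 10 other-lineage UMIs, while Il7r did not (log2 fold change -1.25, edgeR adjusted p = 0.116) and Actn1 was too low to test. In that set the calls of Tcf7 and Klf2 were lost in 5 of the 6 fits that left out 1 sample and that of Dgka in 3, with edgeR adjusted p of up to 0.144, 0.159 and 0.134, each without αPD-1 + corin sample 2. In all cells Klf2 lost its call without αPD-1 sample 1 or 2 (edgeR adjusted p = 0.0573 and 0.0937).

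Ets1, Foxo1 and Il6ra were among the tested members that did not pass. Ets1 had a log2 fold change of -0.71 in all cells and of 0.02 in the cells with under 10 other-lineage UMIs. Ccr7 was too low to test, with 29 of 145 αPD-1 cells and 1 of 58 αPD-1 + corin cells holding a UMI.

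**Figure D2:**
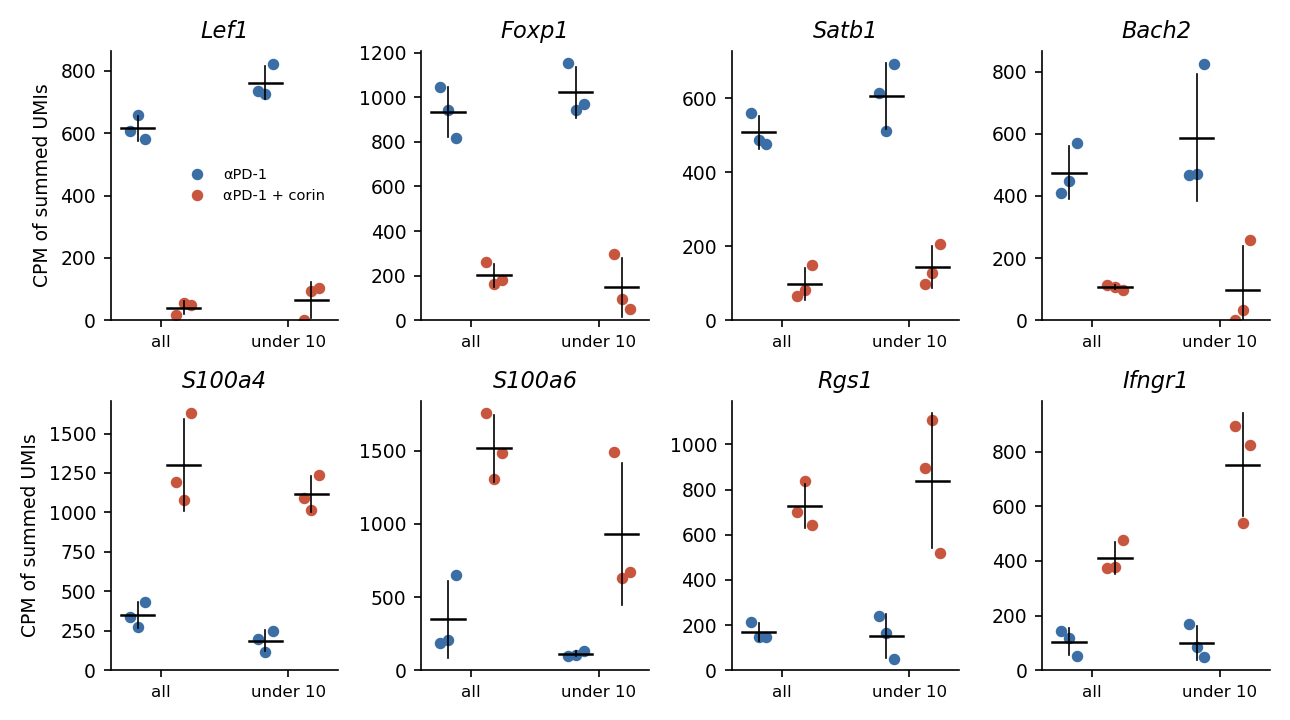
Levels of 4 genes of the naive program (top) and 4 genes that rose (bottom) in CPM of summed UMIs, for all conventional CD4 T cells (all) and for those with under 10 other-lineage UMIs (under 10). Points are samples, horizontal bars means and vertical bars SD; in all 8 genes the groups do not overlap in either set of cells, as held for 34.2% and 28.3% of the genes tested in the 2 sets.

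Other lower genes named by rule lay outside the lists. Scml4, a Polycomb group gene, stood at 187, 294 and 197 CPM against 0, 54.0 and 49.5 CPM (log2 fold change -2.65, edgeR adjusted p = 0.00223), and Aff3, a gene of the elongation complex family, at 367, 418 and 394 CPM against 130, 54.0 and 82.5 CPM (log2 fold change -2.16, edgeR adjusted p = 0.000558). Gm2682 fell from 934, 912 and 694 CPM to 196, 121 and 99.0 CPM (log2 fold change -2.61, edgeR adjusted p = 1.39e-05). These 3 also passed in the cells with under 10 other-lineage UMIs, where Scml4 lost its call in the 3 fits with 1 sample left out that could test it (edgeR adjusted p of up to 0.0995). Pced1b and Cnot4 fell by 2.30 and 2.28 (edgeR adjusted p = 0.0203 each), were too low to test there, and lost their calls in 3 of 6 and 1 of 4 fits that left out 1 sample.

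The promoters of the 9 lower genes of the naive list are shown where they hold a motif of the factors that fell. RefSeq windows of 300 bases (250 before to 50 after each start, build GRCm38.p6) were found for all 9 genes, 22 windows in all. The TCF/LEF motif (CTTTGAA or CTTTGAT, either strand) was in 1 of the 22 windows (4.55%), at Foxp1, in 4.78% of the 1506 windows of tested genes and in 8.65% of all 32851 windows. The forkhead motif (TGTTTAC, either strand) was in 1 of the 22 windows (4.55%), at Tcf7, in 2.46% of the windows of tested genes and in 3.65% of all windows. The motifs do not overlap each other in these windows. The first sequence lies at chr6:99266466-99266765 and the second at chr11:52282546-52282845, both on the minus strand, with the match in capitals.
Foxp1: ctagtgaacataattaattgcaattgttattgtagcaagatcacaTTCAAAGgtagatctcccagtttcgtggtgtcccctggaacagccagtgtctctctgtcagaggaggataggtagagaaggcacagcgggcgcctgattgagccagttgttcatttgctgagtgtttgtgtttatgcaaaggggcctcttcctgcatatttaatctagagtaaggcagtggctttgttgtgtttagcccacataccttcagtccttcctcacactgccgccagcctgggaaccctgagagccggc
Tcf7: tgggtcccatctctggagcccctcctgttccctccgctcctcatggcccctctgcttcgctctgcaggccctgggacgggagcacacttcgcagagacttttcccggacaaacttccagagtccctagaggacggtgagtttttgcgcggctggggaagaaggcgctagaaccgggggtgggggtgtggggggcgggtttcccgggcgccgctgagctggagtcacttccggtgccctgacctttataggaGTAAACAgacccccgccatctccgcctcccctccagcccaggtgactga
The matches describe these letters only.

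Genes of tissue retention and residency moved the other way. Of 23 genes in the list, 18 could be tested, 8 were higher and none was lower, with a median log2 fold change of 0.90. Within the cells with under 10 other-lineage UMIs, 17 could be tested and 10 were higher, again with none lower. Over all genes tested, 8.29% were higher in all cells and 5.73% in this set. The summed level of the list there was 4549, 4425 and 5254 CPM under αPD-1 and 14312, 12475 and 13589 CPM under αPD-1 + corin.

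S100a4 (ENSMUSG00000001020, chromosome 3, 90511074 to 90513354 in GENCODE vM39), a calcium-binding protein of motile and memory T cells, stood at 339, 277 and 435 CPM under αPD-1 and at 1190, 1080 and 1633 CPM under αPD-1 + corin. It rose by 1.90 log2 units (SE 0.26, edgeR adjusted p = 6.79e-05), and by 2.64 in the cells with under 10 other-lineage UMIs (edgeR adjusted p = 3.39e-06). S100a4 UMIs were seen in 32 of 145 and 44 of 58 cells. Its neighbour in the family, S100a6, stood at 187, 206 and 653 CPM against 1760, 1309 and 1484 CPM and rose by 2.17 (SE 0.51, edgeR adjusted p = 0.0398), and by 2.89 in the cells with under 10 other-lineage UMIs. The call of S100a6 in all cells was lost in 5 of the 6 fits that left out 1 sample (edgeR adjusted p of up to 0.141, without αPD-1 + corin sample 1), and its call in the other set was not lost.

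Rgs1, a regulator that dampens chemokine receptor signalling in tissue T cells, stood at 214, 147 and 145 CPM against 701, 837 and 643 CPM and rose by 2.09 (SE 0.27, edgeR adjusted p = 3.32e-05). Lgals1 (galectin-1) and Crip1, a LIM domain protein, rose by 1.47 and 1.43, S100a11 and S100a10 by 1.57 and 0.91, and Zfp36l2, an RNA-binding protein that keeps cytokine transcripts in check, by 0.88, with edgeR adjusted p between 0.000710 and 0.0314. Of the 8 higher genes of the list, only S100a4 stood at or above its level in B cells, macrophages, neutrophils and melanoma cells. All 8 also passed in the cells with under 10 other-lineage UMIs. Vim and Itgb1 passed in that set and not in all cells, and the difference between the sets was not tested. Vim, the intermediate filament vimentin, stood there at 308, 402 and 313 CPM against 1690, 1076 and 1705 CPM (log2 fold change 2.04, edgeR adjusted p = 1.03e-05), and Itgb1, the integrin beta 1 chain, had a log2 fold change of 1.56 (edgeR adjusted p = 0.00606). With 1 sample left out, Zfp36l2 lost its call in all cells in 5 of 6 fits and S100a10 in 2, and in the cells with under 10 other-lineage UMIs S100a11 lost its call in 4, S100a10 in 2 and Zfp36l2, Rgs1 and Itgb1 in 1 each.

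**Figure D3:**
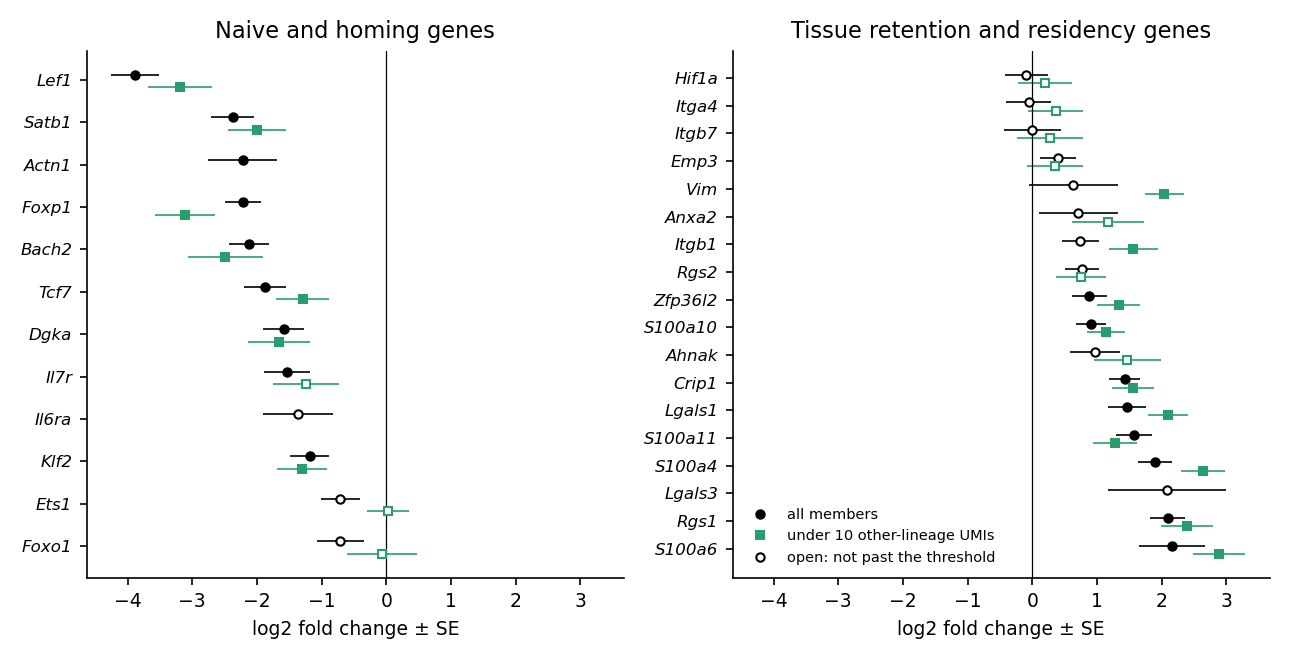
Log2 fold change (αPD-1 + corin over αPD-1, with its SE) of 12 tested genes of the naive and homing list (left) and of each tested gene of the tissue retention and residency list (right). Black circles are all conventional CD4 T cells, green squares the cells with under 10 other-lineage UMIs, and filled symbols passed the edgeR threshold of 0.05; 9 genes on the left were lower and 8 of 18 on the right higher in all cells.

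Among costimulatory receptors and helper ligands, 9 of 17 could be tested, 1 was higher and none was lower, where 8.29% of all 1447 genes were higher. Tnfrsf18 (GITR) stood at 138, 47.1 and 51.8 CPM against 212, 229 and 363 CPM (log2 fold change 1.72, edgeR adjusted p = 0.00997). Icos, a costimulatory receptor of activated CD4 T cells, stood at 131, 147 and 114 CPM against 196, 256 and 297 CPM and did not pass (log2 fold change 0.91, edgeR adjusted p = 0.0695). Restricted to cells with under 10 other-lineage UMIs, 5 of the list could be tested and 3 were higher, namely Icos (log2 fold change 1.54), the costimulatory receptor Cd28 (1.48) and the adhesion receptor Cd44 (1.52), with edgeR adjusted p of 0.0180, 0.0118 and 0.0180. These 3 calls were lost in 5, 4 and 4 of the 6 fits that left out 1 sample, with edgeR adjusted p of up to 0.286, 0.270 and 0.159, the first without αPD-1 + corin sample 3, the second without sample 2 and the third without sample 1 of that group. Tnfrsf18 lost its call without αPD-1 sample 2 or αPD-1 + corin sample 3 (edgeR adjusted p = 0.0895 and 0.0588).

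In the type 1 helper list, 11 of 21 genes could be tested, 4 were higher and none was lower. Over all 1447 genes tested, 8.29% were higher. Cxcr6, a chemokine receptor of T cells in tissues, stood at 69.2, 11.8 and 51.8 CPM against 130, 297 and 115 CPM (log2 fold change 2.12, edgeR adjusted p = 0.0218), and its level in the conventional CD4 cells was 3023% of that in B cells, the highest other lineage. The other higher genes were Ccr2, Ccl4 and Ccl3, and the last 2 stood at 11% and 6.54% of their level in neutrophils. In the cells with under 10 other-lineage UMIs, 6 of this list could be tested and 3 were higher, namely Bhlhe40, a factor needed for cytokine production by helper T cells (log2 fold change 2.74), Id2, a repressor of naive and memory factors (1.24), and Nkg7, a granule protein (1.51), with edgeR adjusted p between 0.00376 and 0.0144. Cxcr6 lost its call without αPD-1 sample 2 or αPD-1 + corin sample 2 (edgeR adjusted p = 0.0844 and 0.275). Among the cells with under 10 other-lineage UMIs, Nkg7 lost its call in 4 and Id2 in 2 of the 6 fits that left out 1 sample.

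Bhlhe40 stood in these cells at 109, 6.92 and 148 CPM under αPD-1 and at 596, 443 and 517 CPM under αPD-1 + corin. Ifngr1, the ligand-binding chain of the interferon gamma receptor, stood in all cells at 145, 118 and 51.8 CPM against 375, 378 and 478 CPM and rose by 1.89 (SE 0.34, edgeR adjusted p = 0.000941). It was 1 of 2 genes called among 9 tested of the 22 cytokine receptors, beside the fall of Il7r. Over all genes tested in all cells, 8.29% were higher and 6.15% lower. Within the cells with under 10 other-lineage UMIs it rose by 2.73 (edgeR adjusted p = 1.85e-05). For both genes the groups did not overlap, as held for 28.3% of the 628 genes tested in that set and 34.2% of the 1447 genes tested in all cells.

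Most lineage factors were too low to test and are given by the number of cells with a UMI, out of 145 αPD-1 and 58 αPD-1 + corin cells. At the median depths of these cells a low transcript can be missed, so these numbers do not bound the cells of a fate. Il22, a cytokine gene of Th17 cells, was in 0 cells of each group, which allows shares of cells with a UMI of up to 2.07% and 5.17%, and Il17a was in 1 cell of each group. Il4 was in 2 cells of each group and Il5 and Il13 in 0 αPD-1 cells and in 2 and 1 αPD-1 + corin cells. Gata3, the Th2 factor that all T cells also use, was in 13.1% and 32.8% of cells (19 in each group). Tbx21, the Th1 factor, was in 8.97% and 17.2% (13 and 10 cells), and Ifng in 8.97% and 27.6% (13 and 16 cells). Among follicular genes, Bcl6 was in 8.28% and 17.2% (12 and 10 cells), Cxcr5 in 5 and 1 cells and Il21 in 5 and 1. These shares were not tested and are not corrected for depth.

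After thinning to 1000 UMIs, which left out 3 of the 58 αPD-1 + corin cells, 12 genes were compared by the share of cells with a UMI, with p-values adjusted over the 12. The shares for Lef1 were 46.7% ± 4.02 and 3.96% ± 1.46 and for Tcf7 41.6% ± 1.93 and 11.8% ± 3.89 (SD, n = 3 each). Higher shares in the αPD-1 + corin samples were measured for Icos (8.53% ± 0.972 and 24.4% ± 5.29), Cxcr6 (3.46% ± 2.99 and 19.5% ± 10.4), Nkg7 (13.1% ± 5.73 and 34.4% ± 7.27), Ccl5 (10.8% ± 5.71 and 33.8% ± 21.3) and Tnfrsf4 (4.51% ± 3.08 and 13.6% ± 2.09). In these 7 genes the groups did not overlap, with an exact permutation p of 0.1 and an adjusted p of 0.15. In the cells with under 10 other-lineage UMIs 6 of the 7 again did not overlap, and Tnfrsf4 did (4.87% ± 3.09 and 8.76% ± 2.53, exact permutation p = 0.3). By summed levels, the groups did not overlap in 34.2% of all 1447 genes tested and in 28.3% of the 628 tested in that set. For shares of cells with a UMI no such figure over all genes was computed. Shares in macrophages of the same samples, thinned alike, were 0.766% and 0.0636% for Lef1, 0.112% and 0.0913% for Icos, and 4.48% and 7.41% for Ccl5. Cd40lg (11.8% ± 1.54 and 9.69% ± 3.67, exact permutation p = 0.5) and Pdcd1 (5.64% ± 2.43 and 8.23% ± 4.67, exact permutation p = 0.6) overlapped between the groups, as did Ccr7 and Ifng (exact permutation p = 0.2 each).

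Within the αPD-1 samples, 24, 36 and 15 cells had naive transcripts and 17, 15 and 10 cells had none of these UMIs. Their levels, in CPM without normalization factors, are a description with no test. Satb1 stood at 870, 575 and 907 CPM in cells with naive transcripts and at 275, 317 and 133 CPM in cells without. Cxcr6 stood at 15.3, 0 and 28.3 CPM against 206, 42.2 and 106 CPM, and Lgals1 at 168, 204 and 368 CPM against 1055, 612 and 905 CPM. Pdcd1, the gene of PD-1, had 3 UMIs in the former cells and 25 in the latter. Other genes of activation did not split in this way: Cd44 stood at 244, 167 and 482 CPM against 252, 106 and 293 CPM, Rgs1 at 198, 167 and 0 CPM against 321, 127 and 293 CPM, Ifngr1 at 153, 83.4 and 56.7 CPM against 184, 211 and 26.6 CPM, and Ifng at 336, 0 and 170 CPM against 138, 42.2 and 26.6 CPM.

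A treatment comparison within cells that had none of the naive UMIs used 17, 15 and 10 cells of the αPD-1 samples and 17, 18 and 15 cells of the αPD-1 + corin samples. Of 728 genes tested, 29 (3.98%) were higher and 10 (1.37%) lower. By the naming rule the largest were S100a9, Acod1 and Il1b upward, all 3 of the neutrophil list, and Gm2682, Aff3 and Hspa1a downward. Gm2682 had a log2 fold change of -2.07, Aff3 of -1.92 and Hspa1a, a heat shock gene, of -1.89 (edgeR adjusted p between 0.0125 and 0.0257). Of the naive list, Foxp1 stood at 720, 642 and 497 CPM against 273, 210 and 208 CPM (log2 fold change -1.43, edgeR adjusted p = 0.0257) and Bach2 at 305, 450 and 276 CPM against 119, 122 and 113 CPM (log2 fold change -1.53, edgeR adjusted p = 0.0352). The higher genes included S100a4 (log2 fold change 1.25) and Rgs1 (1.59). The counts rested on αPD-1 samples 1 and 2: without sample 1, 10 genes were higher and 2 lower, and without sample 2 these counts were 8 and 1. Without αPD-1 + corin sample 1, 2 or 3 the lower genes numbered 5, 4 or 2. In each of the 6 fits that left out 1 sample, 5 of the 29 higher and 0 of the 10 lower genes passed, and of those named here Acod1 and Il1b did. Cells with naive transcripts could not be compared, as the αPD-1 + corin samples held 0, 1 and 1 of them.

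Leaving out the cells with 10 or more other-lineage UMIs kept 13, 11 and 8 cells without naive transcripts under αPD-1 and 7, 11 and 8 under αPD-1 + corin. Of 268 genes tested, 9 (3.36%) were higher and 1 (0.373%), Gm2682, was lower. Levels are in CPM without normalization factors. The 10 were chosen by this test after their values were seen. Ifngr1 stood at 219, 195 and 0 CPM against 933, 677 and 818 CPM (log2 fold change 2.36, edgeR adjusted p = 0.0351), and Rgs1 at 255, 195 and 150 CPM against 933, 1354 and 566 CPM (log2 fold change 2.23, edgeR adjusted p = 0.0145). The other higher genes were S100a6, Crip1, Tnfaip3, Vim, Sh3bgrl3, a small thioredoxin-fold protein, Lgals1 and S100a4, with log2 fold changes between 1.37 (S100a4) and 2.24 (S100a6). Gm2682 had a log2 fold change of -2.01. In all 10 the groups did not overlap, as held for 17.5% of the 268 genes.

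The largest rises over all 203 cells were in genes of neutrophils and macrophages. By rule these were S100a9, Acod1, Slc7a11, Il1b, Ccl3, Cxcl2, Ccl2, Hcar2, Ptgs2 and Clec4d. Cxcl2, a neutrophil chemokine, stood at 290, 76.5 and 93.2 CPM against 4449, 6815 and 2474 CPM, Il1b, the cytokine interleukin 1 beta, at 48.4, 5.89 and 20.7 CPM against 962, 1296 and 313 CPM, and S100a9, a neutrophil calcium-binding protein, at 20.8, 0 and 0 CPM against 2184, 4615 and 1006 CPM. In the conventional CD4 cells the 10 genes stood at 3.07% to 11% of their level in the highest other lineage, in 9 of them neutrophils and for Ccl2 macrophages. Among cells with under 10 other-lineage UMIs, all 10 were too low to test, and S100a9 stood at 0 CPM in 5 of the 6 samples. Calls lost in fits that left out 1 sample were those of S100a9, Ccl2 and Ccl3 (4 of 6 each), Cxcl2 (3), Il1b (2) and Ptgs2 (1).

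The neutrophil, myeloid and B cell lists had higher summed levels as well. Those of the melanoma list and of the γδ T, NKT and NK cell list overlapped between the groups. Of 16 neutrophil genes, 8 could be tested and 7 were higher, with a summed level of 657, 235 and 435 CPM against 10870, 17099 and 5294 CPM. Over all 1447 genes tested, 8.29% were higher. The filter on low counts could be passed on the counts of 1 group alone. Neutrophil genes hardly seen under αPD-1 were thus testable only through high counts under αPD-1 + corin, so 7 of 8 is no support in itself. Of 23 myeloid genes, 8 could be tested and 3 were higher (Fcer1g, Ctsb and Plbd1), and of 21 B cell and plasma cell genes 5 could be tested and none passed, although their median log2 fold change was 2.14 and the list summed to 1937, 530 and 5925 CPM against 16623, 6734 and 7471 CPM. The defining B cell genes Cd79a, Cd79b and Ms4a1 were at 0 by the gate. The 15 melanoma genes summed to between 76.1 and 364 CPM and none could be tested. Of 16 γδ T, NKT and NK cell genes, 14 were in the files, 2 could be tested and Fcer1g was higher. Within the cells with under 10 other-lineage UMIs, the neutrophil list summed to at most 214 CPM and the myeloid list to at most 1093 CPM in any sample, and none of their genes could be tested. Fcer1g lost its call in 5 of 6 fits that left out 1 sample and Plbd1 in 1. Of the 120 higher genes, 38 stood at under 20% of their level in another lineage, against none of the 89 lower genes.

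**Figure D4:**
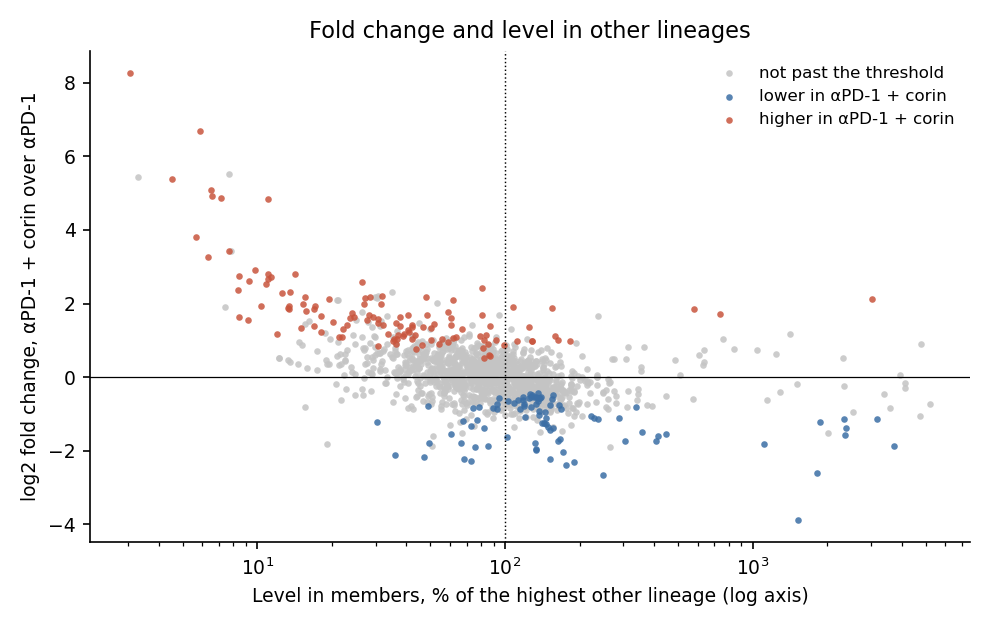
Log2 fold change of the tested genes against their level in conventional CD4 T cells as a percentage of the highest level among B cells, macrophages, neutrophils and melanoma cells (log axis; the dotted line marks equal levels). The 38 higher genes at under 20% hold the largest rises, and the lower genes lie at higher percentages.

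Of the 120 higher genes, 12 stood at or above their level in B cells, macrophages, neutrophils and melanoma cells. These were Cxcr6, S100a4, Ifngr1, Ctla2a, a protease inhibitor of activated T cells, Tnfrsf18, Itm2c, Odc1, the first enzyme of polyamine synthesis, Lcp2, the T cell receptor adaptor SLP-76, Tnfaip3 and Nfkb1, a feedback inhibitor and a subunit of NF-κB, H2afy and Atxn1. Their log2 fold changes lay between 0.97 and 2.12. With 1 sample left out, Odc1 lost its call in 5 of 6 fits, Lcp2, Tnfaip3, Nfkb1 and H2afy in 4, Itm2c and Atxn1 in 3 and Cxcr6 and Tnfrsf18 in 2.

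Among T cell receptor genes, 17 of 18 could be tested and 1 was higher and 3 lower, where 8.29% of all 1447 genes were higher and 6.15% lower. Lcp2 stood at 166, 200 and 186 CPM against 310, 310 and 495 CPM (log2 fold change 1.00, edgeR adjusted p = 0.0292), while Cd247, the zeta chain of the receptor, fell by 1.14 (edgeR adjusted p = 0.0142), Skap1, an adaptor, by 1.21 and Fyn, a kinase, by 0.82. Restricted to cells with under 10 other-lineage UMIs, Lcp2 and Cd247 passed with the same signs, and Skap1 and Fyn had log2 fold changes of -0.52 and -0.83 (edgeR adjusted p = 0.349 and 0.261). Fyn lost its call in all 6 fits that left out 1 sample, Lcp2 in 4 and Cd247 in 2, and in the other set Cd247 in 3. Receptor genes were spread over families: the 6 samples used between 7 and 17 Trbv genes, and the most frequent one was in at most 8 cells of a sample.

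Early response genes of receptor signalling split, with 6 higher and 1 lower of 17 tested. Over all 1447 genes tested, 8.29% were higher and 6.15% lower. Egr1, an immediate early factor, rose by 1.93 and Tnfaip3 by 0.99, and Jun fell by 0.84, with edgeR adjusted p of 0.00107, 0.0203 and 0.0316. In the cells with under 10 other-lineage UMIs only Tnfaip3 (log2 fold change 1.49) and Jun (-1.22) passed among 12 tested. Nfkbia, Dusp1 and Fosb, which were higher in all cells, had log2 fold changes of 0.26, -0.14 and 0.49 there and stood in the conventional CD4 cells at 35.4%, 30.6% and 82.4% of their level in neutrophils. Dusp5 was too low to test there. Jun, Tnfaip3 and Dusp1 lost their calls in all cells in 4 of 6 fits with 1 sample left out, Fosb in 3, Dusp5 in 2 and Nfkbia in 1.

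In the follicular list 4 of 18 could be tested and Tox, a factor of chronically stimulated T cells that the inhibitory receptor list also holds, and Rgs10 were lower (log2 fold change -1.14 and -1.38, edgeR adjusted p = 0.0128 and 0.0244). For this and the next lists, 8.29% of all 1447 genes tested were higher and 6.15% lower. Tox did not pass in the cells with under 10 other-lineage UMIs (log2 fold change -1.76, edgeR adjusted p = 0.0760). Ctla4, the other inhibitory receptor that could be tested, had a log2 fold change of 0.74 (edgeR adjusted p = 0.228). Among cytotoxic genes 2 of 15 could be tested and Srgn, the proteoglycan core of granules, was higher in both sets (log2 fold change 1.09 and 1.07), with its call in the cells with under 10 other-lineage UMIs lost in 2 of 6 fits that left out 1 sample. In all cells Rgs10 lost its call in 3 such fits and Tox in 1. Of 6 tested regulatory T cell genes outside the gate, Tnfrsf18 and Il1r2 were higher. Il1r2 also belongs to the neutrophil list, stood at 8.46% of its level in neutrophils and lost its call in 7 of 15 alternatives, and among the cells with under 10 other-lineage UMIs neither of 2 tested genes of this list passed. Ikzf2, the gene of Helios, was detected in 28 of 145 and 11 of 58 cells.

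Of 33 interferon-stimulated genes, 32 were in the files and 17 could be tested, with Isg15 and Ly6a higher and Ifi213 lower. These counts lie near the shares over all 1447 genes tested, of which 8.29% were higher and 6.15% lower. Ly6a, also called Sca-1, stood at 519, 459 and 404 CPM against 750, 945 and 1204 CPM (log2 fold change 1.06, edgeR adjusted p = 0.00768) and passed in the cells with under 10 other-lineage UMIs as well, whereas Isg15 did not there (log2 fold change 0.32). None of 14 tested genes of glycolysis and hypoxia passed in all cells, and Gapdh did among 7 in the cells with under 10 other-lineage UMIs (log2 fold change 1.13, edgeR adjusted p = 0.0485). Of the quiescence list Klf6 was higher and Foxn3 lower among 13 tested, also near the shares of 8.29% and 6.15% over all genes. The genes of the CoREST complex, the target of corin, were low: of 13 only Phf21a could be tested (log2 fold change -0.60, edgeR adjusted p = 0.289), and Kdm1a, the gene of the demethylase LSD1, stood at 62.3, 106 and 114 CPM against 81.5, 40.5 and 165 CPM. No gene of the Th2 list and none of 2 tested genes of the Th17 list passed in all cells, and Rora, a Th17 and tissue lymphocyte factor, passed in the cells with under 10 other-lineage UMIs (log2 fold change 1.71, edgeR adjusted p = 0.0180). With 1 sample left out, calls were lost in all cells by Klf6 (5 of 6 fits), Ly6a and Ifi213 (3 each), and in the other set by Gapdh (5) and Rora (4).

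Many ribosomal protein genes and several heat shock genes were lower. Of 79 ribosomal protein genes tested, 26 were lower, none was higher and 75 had a log2 fold change below 0, with a median of -0.44. Over all 1447 genes tested, 6.15% were lower and 8.29% higher. These 79 genes were chosen as a group after their values were seen. They made up 20.8%, 24.2% and 19.1% of UMIs under αPD-1 and 14.5%, 15.4% and 17.2% under αPD-1 + corin. Among cells with under 10 other-lineage UMIs, 10 of the 79 were lower with none higher, where 4.78% of the 628 genes tested were lower. Of 14 tested genes of dissociation stress, 5 were lower, all of them heat shock or cochaperone genes, and Atf3 and Ier3 were higher. In the cells with under 10 other-lineage UMIs 2 of 12 were lower, Hspa1a and Hspa1b, and none was higher. Hspa1b fell by 1.78 (edgeR adjusted p = 0.000682), from 1452, 1360 and 673 CPM to 326, 391 and 297 CPM, and by 1.73 in the cells with under 10 other-lineage UMIs, where its call was lost without αPD-1 + corin sample 2 (edgeR adjusted p = 0.0796). Of 6 tested genes of the RNA quality list, Actb and Neat1 were higher, and each lost its call in 3 of 6 fits that left out 1 sample. The part of tissue handling in these differences was not tested.

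To ask whether the changes differed from those of CD8 T cells of the same samples, both cell types were fitted together in edgeR, with the sample as a block. Of 3601 genes, 17 (0.472%) had a more positive change in the conventional CD4 cells and 9 (0.25%) a more negative one. The 17 became 11 without αPD-1 sample 3, and the 9 became 1 to 5 when any sample but αPD-1 + corin sample 2 was left out and 13 without that one. S100a4 stood in this fit at 340, 281 and 446 CPM against 1139, 1081 and 1628 CPM in conventional CD4 cells and at 675, 832 and 1024 CPM against 1349, 732 and 1389 CPM in CD8 cells. The change in CD4 cells exceeded that in CD8 cells by 1.44 log2 units (SE 0.22, edgeR adjusted p = 0.000801). For Rgs1 the excess was 1.87 (SE 0.30, edgeR adjusted p = 0.000810) and for Ifngr1 1.72 (SE 0.35, edgeR adjusted p = 0.0129), and neither gene passed in the CD8 cells (log2 fold change 0.21 and 0.15). The differences of S100a4 and Rgs1 passed in each of the 6 fits that left out 1 sample, and that of Ifngr1 was lost in 2 (edgeR adjusted p of up to 0.143, without αPD-1 + corin sample 3).

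**Figure D5:**
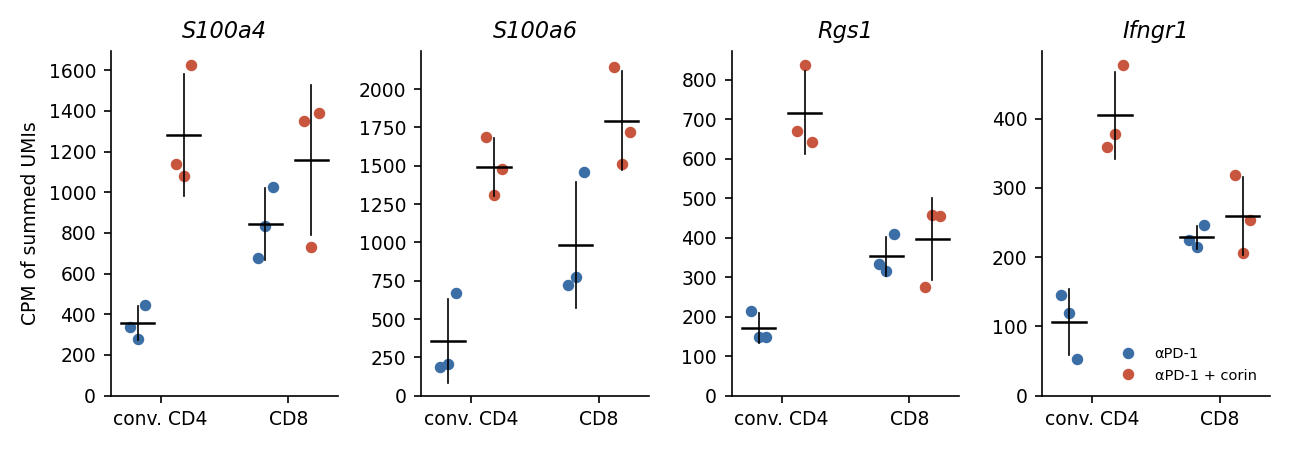
Levels of S100a4, S100a6, Rgs1 and Ifngr1 in conventional CD4 and in CD8 T cells, in CPM of summed UMIs with 1 normalization for both cell types. Points are samples, horizontal bars means and vertical bars SD; the CD4 groups do not overlap for any of the 4 genes, and the CD8 groups overlap for S100a4, Rgs1 and Ifngr1.

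The same 3 genes passed when cells of both types with 10 or more other-lineage UMIs were left out, with differences of 1.67, 1.58 and 2.15, among 9 more positive and 4 more negative genes of 2720. Cxcr6 (3.14) and Vim (1.23) were also among the 9 there, and Tox (-2.07) among the 4. Of the naive genes Lef1, Foxp1, Satb1, Bach2, Tcf7, Klf2 and Il7r, none had a difference that passed in the fit of all cells. Lef1 had a log2 fold change of -3.88 in CD4 and of -2.45 in CD8 cells, and the difference of -1.54 had an edgeR adjusted p of 0.230. Foxp1, Satb1, Tcf7 and Il7r fell in both cell types. The Trbv31 receptor gene had a difference of -5.23 (edgeR adjusted p = 0.0254), with 226 and 355 CPM in the CD8 cells of αPD-1 + corin samples 2 and 3 and 0 to 31.2 CPM in the other 4, and its call was lost in 4 of 6 fits that left out 1 sample.

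Regulatory T cells allowed little comparison. Only αPD-1 samples 1 and 2 and αPD-1 + corin sample 2 held 10 cells of both kinds, which left 1 residual degree of freedom. Of 3292 genes, 3 (0.0911%) had a more positive and 2 (0.0608%) a more negative change in conventional CD4 cells. With all 6 samples and no minimum of cells, 0 were more positive and 1 more negative of 1341 genes.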

How the data were processed

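Raw UMI counts per gene and barcode were deposited by the authors for 6 samples, without normalization, for barcodes called as cells. The submitters' processing notes name Cell Ranger 8.0, Seurat 5.0.11 and the build GRCm39. Of 32285 gene identifiers, 31674 were found in GENCODE vM39. The members and gene lists were chosen with earlier results of these data known. UMIs of the gated cells were summed per sample and tested with edgeR 4.0.16 (glmQLFit and glmQLFTest, TMM, filterByExpr, gate genes left out, R 4.3.3). CPM used the normalized library size. DESeq2 1.42.0 was an alternative. On simulated sums for the main comparison, edgeR found 158 of 164 genes changed 4-fold among 1480, with 9 false calls. The simulation gave every gene the same dispersion and held no cells with RNA of other lineages. These numbers therefore do not carry over to the real sums. Exact permutation tests, two-sided, compared the shares, and 95% Wilson intervals were written for each. Intervals cover counting error only. The level in other lineages came from B cells (2986), macrophages (7768), neutrophils (948) and melanoma cells (1794), picked by marker UMIs. Named genes were the markers, the 10 largest rises and falls past the threshold with at least 20 CPM and no overlap, up to 4 members of highest level and all called members of each list, 12 genes compared by cells with a UMI, and up to 3 each way in other fits. For the cells with under 10 other-lineage UMIs, a cut chosen after seeing the data, the same rules applied. Of the list genes, 4 were not in the files. Naive transcripts were counted over Ccr7 and Lef1 only, a definition narrower than planned and chosen after the data were seen, since a planned item is not reported here.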

Additional observations from a re-analysis of the deposited data

Results flagged for a closer look

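The change under αPD-1 + corin differed between conventional CD4 and CD8 T cells in 17 genes upward and 9 downward by the interaction test of edgeR. The largest by the naming rule were Ccl3 (difference of log2 fold changes 3.72), Gzmb (2.87) and Il1b (2.80) upward and Bgn (-14.51), Igf1r (-3.97) and Rps2 (-0.61) downward. With 1 sample left out, the differences of Rps2 were lost in 4 of 6 fits, of Gzmb in 3, of Bgn in 2 and of Il1b in 1, with edgeR adjusted p of up to 0.191 for Rps2 and 0.178 for Gzmb, while those of Ccl3 and Igf1r were not. Without cells of 10 or more other-lineage UMIs, Gzmb had an edgeR adjusted p of 0.642 and Ccl3 of 0.736. Ccl3 and Il1b stood in conventional CD4 cells at 6.54% and 6.52% of their level in neutrophils. Gzmb, the granzyme B gene, stood at 20.8, 0 and 21.3 CPM against 156, 81.1 and 148 CPM in conventional CD4 cells. The value for Bgn depends on the prior count, since all its counts in conventional CD4 cells came from αPD-1 sample 3. Igf1r stood at 132, 125 and 202 CPM against 0, 94.6 and 16.4 CPM in conventional CD4 cells.

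Against regulatory T cells, Rgs1 (2.89), Camk1d (2.89) and Lgals3 (2.61) differed upward and Ccr7 (-14.24) and Ifitm1 (-6.36) downward, in a fit of 3 samples with 1 residual degree of freedom. Ccr7 had no count in conventional CD4 cells of the 1 αPD-1 + corin sample in that fit, so its value is no measure of size.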

How the results depend on the processing

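The counts of higher and lower genes in all cells moved with the settings. They were 71 and 32 with DESeq2, 48 and 46 with equal numbers of cells, 51 and 43 with cells thinned to 1000 UMIs, 2 and 1 with at least 2 Cd4 UMIs, 19 and 16 without cells of 3 or more other-lineage UMIs, and 36 and 30 without those of 10 or more. Leaving out cells with a UMI of Ikzf2, Ikzf4 or Lrrc32 gave 56 higher genes, and no filter on low counts gave 167 lower ones. Leaving out 1 sample gave 52 to 127 higher and 36 to 97 lower genes, with the lowest counts without αPD-1 sample 1 (53 and 36) or 2 (52 and 41). In the cells with under 10 other-lineage UMIs the ranges were 20 to 46 and 14 to 44, with 21 higher without αPD-1 sample 1 or αPD-1 + corin sample 1, 20 higher without αPD-1 + corin sample 2 and 14 lower without αPD-1 + corin sample 1.

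The replicate block gave 70 higher and 39 lower genes in all cells and 20 and 2 in cells without naive transcripts. Same-numbered samples did not deviate together, with correlations of -0.106, -0.034 and -0.107. With 3 samples per group such correlations cannot settle whether the numbers pair the samples. In cells without naive transcripts, leaving out 1 sample gave 8 to 32 higher and 1 to 13 lower genes (lowest without αPD-1 sample 2), DESeq2 gave 6 lower, the gate on thinned counts gave 21 lower, and leaving out cells with 10 or more other-lineage UMIs gave 9 and 1. Against CD8 T cells the ranges were 11 to 25 and 1 to 13 (lowest without αPD-1 sample 3), and 9 and 4 without cells of 10 or more other-lineage UMIs. Against regulatory T cells no minimum of cells gave 0 and 1, and no sample could be left out.

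Some signs turned, none past a threshold. Dusp1 was at -0.14 on the log2 scale without cells of 10 or more other-lineage UMIs, Skap1 at 0.37 without those of 3 or more, and the share of cells with a Cd40lg UMI was 3.90 percentage points higher in the former set. With at least 2 Cd4 UMIs, the share of conventional among CD4 T cells was 3.47 percentage points higher in the αPD-1 + corin samples. The cause was not tested. The comparison within cells with naive transcripts and its alternatives were not run, because the αPD-1 + corin samples held too few of them. The small number of αPD-1 + corin cells limits which genes could be tested.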
